A study of Rattus norvegicus with 3 samples.

Results

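The nanotube called CNT-2 was set against the control in NR8383, an established line of rat alveolar macrophages, and the differences of all 15925 named genes are described. CNT-2 and CNT-1 are both single-wall carbon nanotubes, described by the submitters as free of impurities, and what distinguishes them cannot be learned from the sources used here. CNT-2 cells received 0.1 mg/mL nanotubes in 1 mg/mL bovine serum albumin, and the CNT-1 culture was treated alike with the other material. Medium in every group held 15% heat-inactivated serum, and exposure lasted 24 h. Control cells go by 2 descriptions in the labels, as untreated and as solvent-treated, which leaves unclear if albumin was added to them. A single cell line grown in multiwell plates limits these data as a model of macrophages in the lung.

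The comparison used 2 of the 3 deposited columns, control and CNT-2, and CNT-1 values are shown beside them. The array held 41103 probes, and the 20932 with a gene symbol gave the 15925 genes. Each probe's control value was subtracted from its CNT-2 value, and probes sharing a symbol were averaged. The design text states n = 4, but it could not be settled if a column is a single array or a mean of 4. With 1 column on each side no test was made, and "higher" and "lower" describe these columns alone. The deposited values are relative to a baseline of each probe that is not described, and a log2 scale is presumed. On that scale a difference of 1 is 2-fold, and 1 was the threshold for counting a gene as higher or lower. Column values are given as those in the control, with CNT-1 and with CNT-2. A value in brackets or after "by" is the difference between CNT-2 and control. The ± is the SD over the probes of a gene, which is spread within the arrays and not between cultures, and a gene without it had 1 probe. Because the levels of genes were removed, macrophage identity could not be checked from marker levels. In bulk RNA, fewer cells of a kind and less RNA per cell cannot be told apart.

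Alveolar macrophages are the resident phagocytes of the air spaces. They take up inhaled particles into phagosomes that mature by fusion with acidic lysosomes, and they handle surfactant lipids. On activation they secrete chemokines, cytokines and proteases and shift their metabolism towards glycolysis. Long, poorly degraded particles such as carbon nanotubes are studied in these cells because uptake can last without clearance. NR8383 cells divide in culture, so genes of the cell cycle are measurable beside those of phagocyte function.

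Compared with the control, CNT-2 cells had 1616 genes higher by at least 1 and 1045 lower by at least 1. These were 10.1% and 6.56% of all genes, which is the background against which the counts of gene groups below are read. The differences were lopsided in size. At 2 or more there were 431 higher and 168 lower genes, at 3 or more 175 and 29, and at 5 or more 37 and 1. The single gene lower by 5 was Sucnr1, the succinate receptor, and 7 genes were higher by 7 or more. The median over all genes was 0.04, and the middle 50% of genes lay between -0.27 and 0.47. The balance of the directions at the threshold of 1 depended on where the columns were centred. As deposited, 60.7% of the differences past 1 were on the higher side. With the columns centred on their 75th percentile every difference decreased by 0.438, which gave 838 higher and 2295 lower genes, or 26.7% higher. With centring on the spike-in probes, which report added RNA, every difference decreased by 0.245, which gave 1100 and 1618 genes, or 40.5% higher. The medians of 36 of the 94 gene groups changed sign with the 75th percentile, 18 with the spike-in probes and 10 with quantile normalization, which is stated where such a median is given below.

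Probes were separated by their control value. Of the 20932 named probes, 15194 (72.6%) lay within 0.1 of 0 in the control and 5738 lay further away. Among genes with every probe within 0.1 of 0, 1168 of 10796 were higher (10.8%) and 795 lower (7.36%), with a median of 0.07. Among genes with no probe within 0.1 of 0, 371 of 4194 were higher (8.85%) and 207 lower (4.94%), with a median of -0.01. The other 935 genes had probes of both kinds. The near-0 genes were 67.8% of all genes and held 25 of the 29 genes lower by 3 or more (86.2%), while genes without a near-0 probe held 3. At 4 or more, 53 near-0 genes were higher and 7 lower, against 24 higher and 0 lower among genes without a near-0 probe.

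**Figure D1:**
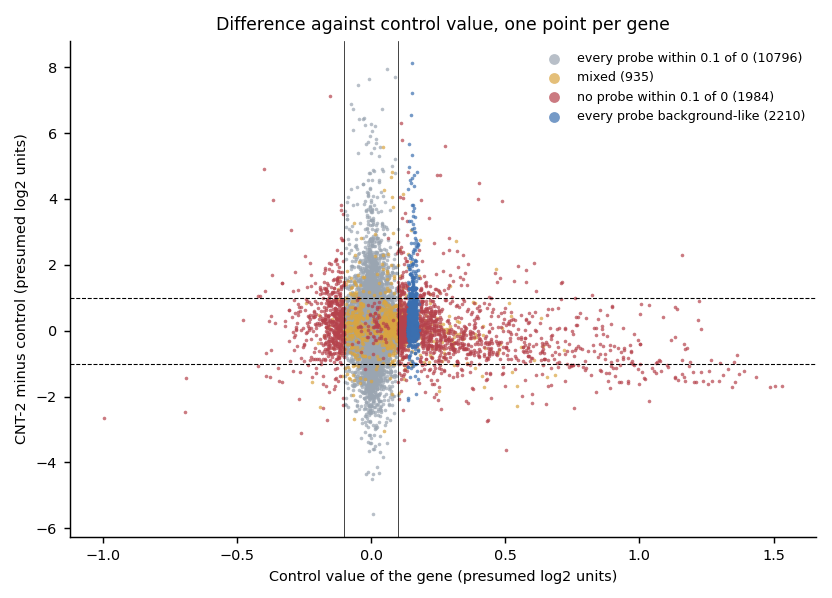
Difference between CNT-2 and control (vertical axis, presumed log2) against the control value (horizontal axis, presumed log2), 1 point for each of 15925 genes, coloured by whether the gene's probes lay within 0.1 of 0 in the control; both axes use the mean over a gene's probes. Dashed lines mark 1 and -1. Genes of the background-like class form a narrow band near the negative control's 0.157 with few points below -1, and genes with a high control value lie mostly below 0.

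Probes far from 0 were not of 1 kind. Of the 5738, 3036 lay within 0.02 of the negative-control probe, whose control value was 0.157, and are called background-like here. A centred value close to that of the negative control does not by itself show that a probe was at background. These probes were higher in 6.42% and lower in 0.56%, with a median difference of -0.02, while the negative control itself differed by -0.10. Probes above 0.1 that were not background-like were lower in 13.6%, and probes below -0.1 were higher in 14.8% and lower in 6.66%. Where the control value was 0.5 or more (405 probes), 32.1% were lower by at least 1. Their median control value was 0.77, their median CNT-2 value 0.15 and their median difference -0.65. The control value is part of the difference, so probes picked for a high control value lean towards a negative one by construction. Among genes named below, 1 probe each of Adora2a, Csf1, Cxcl3, Eeig2, Fasn, Il33, Nid1, Rsad2 and Usp18 was background-like.

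Olfactory receptor genes were separated in the same way. Their 1099 probes were higher in 8.01% and lower in 3.55%, with a median of -0.003. The 334 of these probes near 0 were higher in 11.1% and lower in 2.40%, and the other 765 in 6.67% and 4.05%. Lower probes were thus the rarer near 0 here. Among all named probes they were the more frequent near 0, with 7.31% against 5.51%. Of the 513 that were background-like, 4.29% were higher and 0% lower. The 8.01% of higher probes in this family stand beside 10.4% of all named probes, and the 3.55% of lower ones beside 6.82%.

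**Figure D2:**
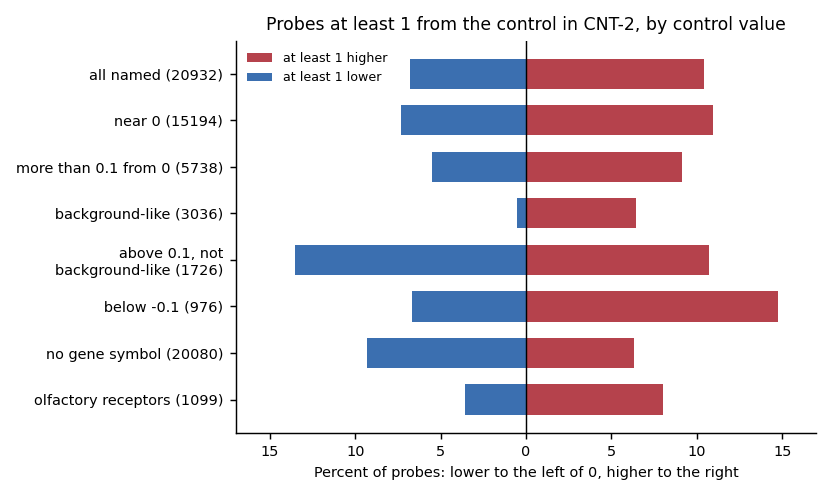
Percent of probes at least 1 higher (right of 0) or at least 1 lower (left of 0) with CNT-2 than in the control, by class of the control value, for probes without a gene symbol and for olfactory receptor probes; the number of probes is in brackets. The background-like class has 6.42% higher and 0.56% lower probes, whereas in the class above 0.1 that is not background-like the lower share, 13.6%, exceeds the higher share.

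Among genes with every probe near 0, the highest were genes of activated macrophages together with genes better known from other tissues. Acod1, which makes the antimicrobial metabolite itaconate in mitochondria, was at -0.01 in the control, -0.09 with CNT-1 and 7.64 with CNT-2. Serpinb2, which blocks plasminogen activators, was at 0.09 in the control, 0.87 with CNT-1 and 7.78 with CNT-2. Inhba, which encodes a subunit of activin, was at -0.07 in the control, -0.10 with CNT-1 and 6.80 with CNT-2. In these 3 genes the CNT-2 column stood far above the others, and the CNT-1 column was within 1 of the control. Cxcl2, a neutrophil chemokine, was at 0.00 in the control, 0.61 with CNT-1 and 6.27 with CNT-2, and the stress cytokine gene Gdf15 was at -0.02 in the control, 1.71 with CNT-1 and 6.22 with CNT-2. Gdf15 was thus higher in both nanotube columns, and further above the control with CNT-2. Differences of 6 or more were also found for Eps8, an actin capping and bundling protein (6.73 ± 1.41, 3 probes), the receptor phosphatase Ptprf (6.44), the adaptor Lat2 (6.41) and Rgs1, a regulator of G protein signalling (6.06). Slc6a3, the dopamine transporter (7.95), Xirp1, an actin-binding protein of striated muscle (7.47), Sbsn and Dmkn of the epidermis (6.73 and 6.20), Ambp (6.41) and Cabp2, a calcium-binding protein (6.09), each rest on 1 probe. Xirp1, Sbsn, Dmkn and Slc6a3 had CNT-1 values of -1.09, -1.03, -0.88 and -0.56, below the control.

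The lowest genes with every probe near 0 lay on the same side of the control in both nanotube columns, with 1 exception. Both columns were set against the same control column, so a shared side is not independent agreement. Sucnr1 was at 0.01 in the control, -0.87 with CNT-1 and -5.56 with CNT-2. Selenop, the secreted selenium carrier, was at 0.01 in the control, -1.45 with CNT-1 and -4.35 with CNT-2, and Ptgs1, the constitutive cyclooxygenase, was at -0.01 in the control, -1.62 with CNT-1 and -4.29 with CNT-2. Cfp, which encodes properdin, the stabiliser of the alternative complement convertase, was at 0.04 in the control, -1.09 with CNT-1 and -3.79 with CNT-2. For these 4 genes the CNT-1 column lay between the other two. Cxcl10, an interferon-induced chemokine, was at 0.03 in the control, -0.80 with CNT-1 and -3.66 with CNT-2. The exception was the monocyte chemokine gene Ccl12, at 0.02 in the control, 0.70 with CNT-1 and -3.49 with CNT-2, where the nanotube columns lay on opposite sides of the control. Others among the 15 lowest were Clec2l (-4.51 ± 0.20, 2 probes), the liver glycogen synthase Gys2 (-4.36 ± 0.32, 2 probes), Spata46 (-4.33), Pde9a, which degrades cyclic GMP (-4.14), the peroxisomal transporter Abcd2 (-3.67), the glutamate transporter Slc1a3 (-3.59 ± 0.04, 2 probes), the translation inhibitor Pdcd4 (-3.59), the amino acid transporter Slc36a2 (-3.45) and Angptl4, an inhibitor of lipoprotein lipase (-3.42).

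**Figure D3:**
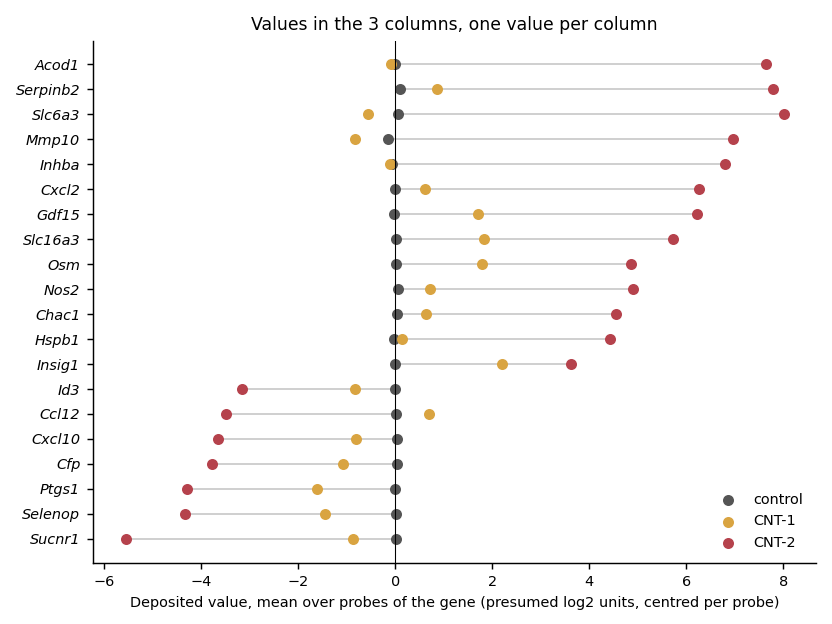
Deposited values (horizontal axis, presumed log2, centred per probe, mean over probes of a gene) of 20 genes in the control, CNT-1 and CNT-2 columns, 1 value per column, so without error bars. The CNT-2 value is the furthest from the control in each of the 20 genes, from 8.01 for Slc6a3 to -5.56 for Sucnr1, and for Ccl12 the CNT-1 and CNT-2 values lie on opposite sides of 0.

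Genes without a near-0 probe reached the same heights and had smaller negative differences. Mmp10, a metalloproteinase that degrades matrix proteins, was at -0.15 in the control, -0.83 with CNT-1 and 6.96 with CNT-2. The calponin Cnn3 was at 0.28 in the control, 0.08 with CNT-1 and 5.87 with CNT-2, the keratin gene Krt76 at 0.11 in the control, -0.08 with CNT-1 and 6.41 with CNT-2 and Gsg1 at 0.11 in the control, 0.54 with CNT-1 and 5.92 with CNT-2. All 4 were far above the other columns with CNT-2. The remaining genes among the 10 highest were background-like in the control. They were the natriuretic peptide gene Nppb (8.12), Sytl3 (7.23), the glucose transporter Slc2a6 (6.54), Ltbp1, which binds latent TGF-beta (5.68), Tmbim1 (5.33) and Ribc2 (4.98). If such a probe was at background in the control, the size of its difference depends on that background. On the lower side, Igf2, a growth factor, was at 0.50 in the control, -0.44 with CNT-1 and -3.13 with CNT-2, and Xrcc2, a recombination protein, at 0.44 in the control, -1.13 with CNT-1 and -2.26 with CNT-2. The cytokine Il16 was at 0.12 in the control, -1.35 with CNT-1 and -2.29 with CNT-2. Prkcq, a protein kinase C, was at -1.0 in the control, -4.85 with CNT-1 and -3.66 with CNT-2 and Ndst1, a heparan sulfate enzyme, at -0.69 in the control, -3.13 with CNT-1 and -3.16 with CNT-2. Prkcq and Ndst1 were thus below 0 in all 3 columns, for Prkcq the CNT-1 column was the lowest, and quantile normalization turned both differences positive. Also among the 10 lowest were Ifi214 (-3.33), Diras2 (-3.11), Crb2 (-2.75), Adam26a (-2.72) and the ficolin Fcnb (-2.38).

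Several probes for the same gene show the spread within the arrays. Of the 3909 genes with 2 or more probes, 342 were higher and 207 lower. Every probe passed the threshold in 247 of the 342 (72.2%) and in 128 of the 207 (61.8%). The genes were picked by the mean of these same probes, so the shares are no independent check. With all probes near 0 they were 188 of 247 higher genes (76.1%) and 107 of 161 lower genes (66.5%). With no probe near 0 they were 7 of 18 (38.9%) and 2 of 3. The median probe SD was 0.14 where all probes were near 0 and 0.32 where none was. Among genes with 3 or more probes, 28 were higher and 16 lower with every probe past the threshold. Insig1, which restrains sterol synthesis, had differences from 3.34 to 3.81 over 4 probes. Il7r, the interleukin-7 receptor (2.80 ± 0.07, 3 probes), and Id3, an inhibitor of helix-loop-helix transcription factors (-3.16 ± 0.05, 3 probes), were the closest in their probes among the 10 genes named on each side. MGC116197 differed by 4.66 ± 0.48 (7 probes), Cdc14a, a mitotic exit phosphatase, by 2.74 ± 0.68 (3 probes), the magnesium transporter Slc41a2 by 2.69 ± 0.22 (3 probes), the nuclear receptor Nr4a3 by 2.28 ± 0.65 (3 probes), Eeig2 by 2.28 ± 0.17 (3 probes) and the chloride transporter Clcn4 by 2.22 ± 0.20 (3 probes). The basement membrane gene Nid1 (2.94 ± 2.61, 3 probes) owed its mean to 1 probe at 5.95, the others being at 1.37 and 1.51. On the lower side, Gdap1 had probes from -3.89 to -1.6 with a mean of -2.98. The growth hormone receptor Ghr differed by -2.68 ± 0.14 (3 probes), the ETS factor Etv1 by -1.92 ± 0.16 (4 probes), Ppfia4 by -1.83 ± 0.81 (3 probes), Trim14 by -1.77 ± 0.14 (3 probes), the sorting receptor Sort1 by -1.68 ± 0.31 (3 probes), the Wnt pathway factor Tcf7l2 by -1.66 ± 0.24 (3 probes), Tmcc3 by -1.53 ± 0.69 (3 probes) and the protocadherin Pcdha4 by -1.51 ± 0.28 (4 probes).

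In 8 genes the probes passed the threshold on both sides, so that the mean describes none of them. The endosomal protein Washc4 had probes at -2.74, 1.09 and 1.14, the adaptor Crk at -1.97, 0.67, 1.03 and 1.08, and Gpr176 at -1.13, 0.23 and 1.01. The other 5 had 2 probes each, at -1.22 and 2.48 for Ift70a2, -1.90 and 1.75 for Slc22a15, -1.83 and 1.34 for the calcium channel Itpr3, -1.52 and 1.24 for the sialoglycoprotein Spn and -1.05 and 1.56 for Smoc2. Which transcripts these probes detect was not examined.

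**Figure D4:**
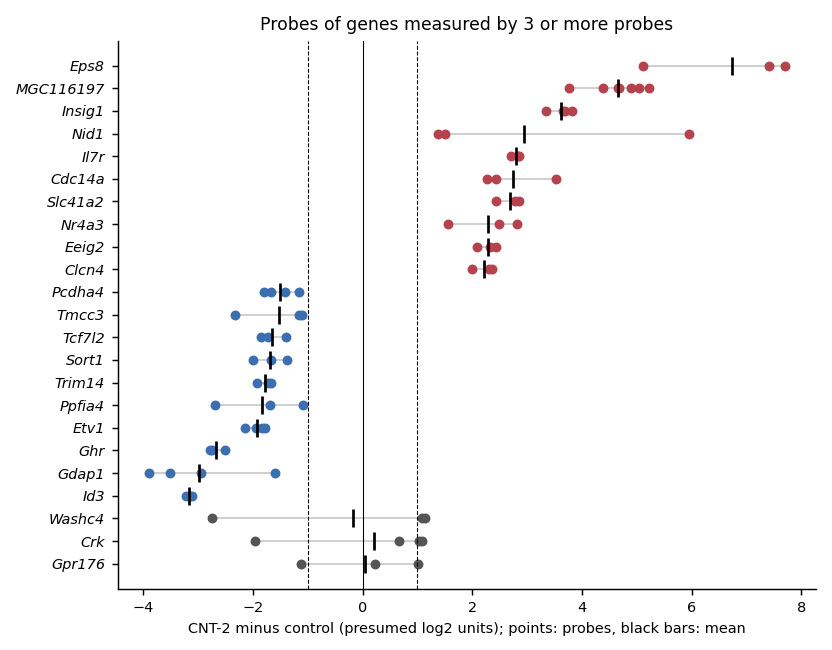
Difference between CNT-2 and control (presumed log2) of each probe (points) and the mean (black bars) for 23 genes with 3 or more probes: the 10 highest and 10 lowest with every probe past 1 on the same side, and 3 with probes past 1 on both sides. Insig1, Il7r and Id3 have tight probes, whereas Nid1, Gdap1 and Washc4 spread by more than 2.

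Genes of sterol and fatty acid synthesis were higher, while most genes of fatty acid oxidation and sterol efflux lay within 1 of the control. All 17 measured enzymes of sterol synthesis were higher by at least 1, with a median of 2.78 and a range from 1.14 to 3.67. With CNT-1, set against the same control column, 14 of the 17 were higher by at least 1, with a median of 1.71. Among the regulators and uptake genes 4 of 8 were higher, with a median of 1.21. Acss2, which makes acetyl-CoA from acetate for lipid synthesis, was at -0.02 in the control, 1.81 with CNT-1 and 3.06 with CNT-2. Of 19 enzymes of fatty acid synthesis 12 were higher (63.2%, against 10.1% of all genes) and 0 lower, with a median of 1.05. Among them were Fasn, the fatty acid synthase (1.66 ± 0.29, 2 probes), the desaturase Scd2 (1.92 ± 1.06, 3 probes), the elongases Elovl1 (1.68 ± 0.05, 2 probes) and Elovl6 (1.61 ± 0.02, 2 probes), Mid1ip1, an activator of acetyl-CoA carboxylase (1.72 ± 0.12, 2 probes), and the acyl-CoA synthetases Acsl4 (1.65 ± 0.22, 2 probes) and Acsl5 (1.42). The 3 probes of Scd2 spread more than those of the elongases. Of 22 genes of fatty acid oxidation 0 were higher and 3 lower, with a median of -0.20. These were Hadh (-1.39 ± 0.12, 2 probes), the carnitine transferase Cpt2 (-1.37) and Acadvl, the dehydrogenase of very long chains (-1.04 ± 0.08, 2 probes). Among 14 sterol efflux genes the exporter Abca1 was higher (1.33) and the ester hydrolase Nceh1 lower (-1.0). The related exporter Abcg1 differed by -0.82. The median of this group was 0.18, with -0.25 after 75th percentile centring and -0.06 after spike-in centring.

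Glucose genes were mostly higher and mitochondrial genes close to the control. Slc16a3, the exporter of lactate, was at 0.02 in the control, 1.82 with CNT-1 and 5.73 with CNT-2. Of 23 genes of glucose uptake and glycolysis 15 were higher (65.2%) and 1 lower, with a median of 1.23. The glucose transporter Slc2a1 differed by 2.49, and the hexokinases Hk1, Hk2 and Hk3 differed by 3.82 ± 1.56 (2 probes), 2.29 and 2.28. Pfkl, the liver phosphofructokinase, differed by 2.35. Both probes of Hk1 were background-like in the control. Lower were Ldhb, the lactate dehydrogenase chain that favours pyruvate (-1.53), and the pyruvate dehydrogenase kinases Pdk2 (-1.59) and Pdk4 (-2.68 ± 3.41, 2 probes), the last with an SD over its probes larger than its mean. Of 24 targets of the hypoxia factor 11 were higher and 0 lower, with a median of 0.94, among them Ankrd37 (2.38), Bnip3 (2.30), Vegfa (2.09 ± 0.99, 2 probes), Ndrg1 (1.56 ± 0.04, 2 probes) and the oxygen sensor Egln1 (1.36). None of the 18 enzymes of the tricarboxylic acid cycle passed the threshold, and their range was -0.98 to 0.59. Idh2, the mitochondrial isocitrate dehydrogenase, was the lowest of them (-0.98 ± 0.01, 2 probes). The 69 mitochondrial ribosomal protein genes had a median of -0.17, with 0 higher and 1 lower, and the 40 genes of respiratory complex I a median of -0.10, with 0 higher and 2 lower.

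**Figure D5:**
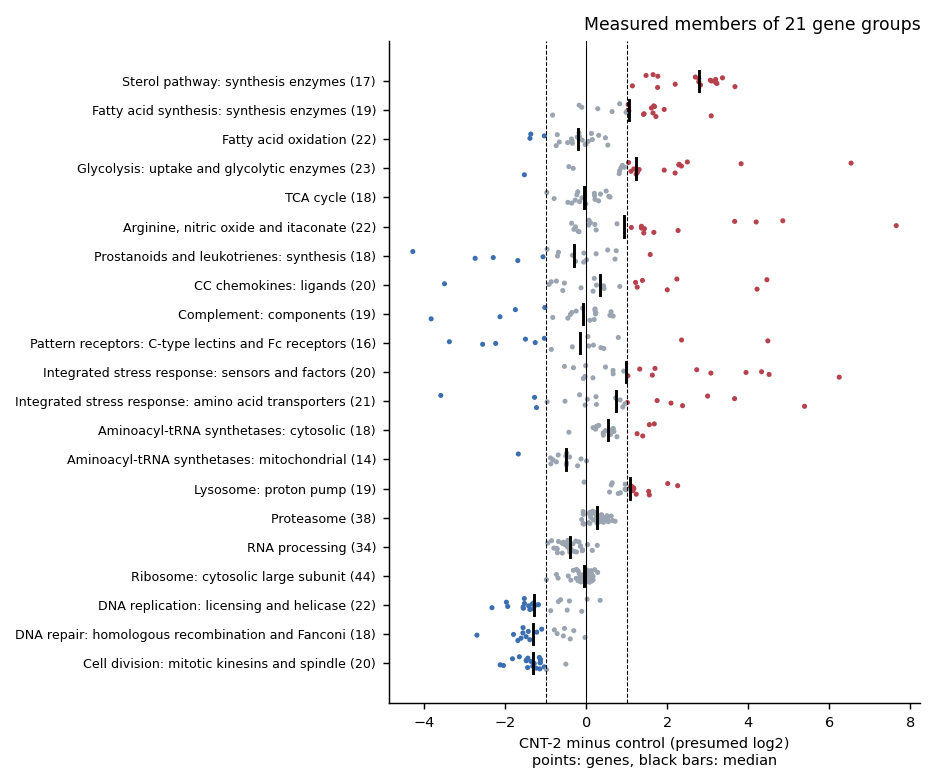
Difference between CNT-2 and control (horizontal axis, presumed log2) of each measured member (points) of 21 gene groups, with the group median (black bars) and the number of members in brackets; red points are at least 1 higher and blue points at least 1 lower. Every point of sterol synthesis lies to the right of 1, most points of the spindle, licensing and recombination groups lie to the left of -1, and proteasome and splicing genes lie within 1 of 0.

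Genes for arginine, nitric oxide and itaconate were higher as a group, with 11 of 22 higher, 0 lower and a median of 0.93. Nos2, the inducible nitric oxide synthase, was at 0.04 in the control, 0.72 with CNT-1 and 4.89 with CNT-2, and Arg1, the arginase that competes for the same amino acid, was at -0.01 in the control, 0.31 with CNT-1 and 4.18 with CNT-2. Both were thus higher with CNT-2, and with CNT-1 both were within 1 of the control. Nos3, the endothelial synthase, differed by 3.66, Gch1, which makes the synthases' cofactor, by 2.26, the arginine transporters Slc7a1 and Slc7a2 by 1.67 ± 0.38 (2 probes) and 1.42 ± 0.04 (2 probes), and the polyamine enzyme Sat1 by 1.44.

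Enzymes of eicosanoid synthesis lay on the lower side. Of 18 genes 5 were lower (27.8%, against 6.56% of all genes) and 1 higher, with a median of -0.30. Beside Ptgs1 these included the leukotriene genes Alox5, the 5-lipoxygenase (-2.30), its activating protein Alox5ap (-2.74) and the hydrolase Lta4h (-1.69). Alox5ap was at -0.01 in the control, -1.68 with CNT-1 and -2.76 with CNT-2. The higher gene was Ptgds, a prostaglandin D synthase (1.58). Among 13 receptors 3 were higher, Ptger2 (1.71), Ptgdr2 (1.19) and Ptgdr (1.02), and 2 lower, Ptgfr (-2.58) and Ptger4 (-1.54). Ptger4 started from a control value of 0.96.

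Chemokine genes lay on both sides of the control. Of 20 CC ligands 7 were higher and 1 lower, with a median of 0.34, which was -0.10 with 75th percentile centring. Ccl4 was at -0.03 in the control, 1.01 with CNT-1 and 4.43 with CNT-2, and Ccl3 at -0.02 in the control, 0.86 with CNT-1 and 2.21 with CNT-2, both ligands of a receptor on macrophages and T cells. Ccl27 differed by 4.21, Ccl28 by 2.0 and Ccl5 by 1.38, and Ccl12 was the lower one. Among 13 CC receptors 3 were higher, among them Ccrl2 (2.69) and Ccr1 (1.40). Of 12 CXC ligands 4 were higher and 2 lower. Cxcl1, background-like in the control, was at 0.15 in the control, 1.20 with CNT-1 and 4.63 with CNT-2. Pf4, platelet factor 4, differed by 2.79 and Cxcl3 by 1.74 ± 1.94 (2 probes), with an SD as large as its mean, whereas Cxcl13 differed by -1.18. The related receptors Cxcr1 and Cxcr2 differed in opposite directions, by 2.87 and -2.86. Cxcr2 was at 0.02 in the control, 0.05 with CNT-1 and -2.84 with CNT-2, so that the CNT-2 column alone was low.

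Cytokine genes were higher in some members and lower in others. Of 65 genes of cytokines, their receptors and their signalling, 8 were higher (12.3%) and 7 lower (10.8%), against 10.1% and 6.56% of all genes. The interleukin-1 family and the TNF superfamily were counted in lists of their own. Osm, oncostatin M, was at 0.01 in the control, 1.78 with CNT-1 and 4.86 with CNT-2. In the interleukin-1 family the antagonist Il1rn was at 0.00 in the control, -0.04 with CNT-1 and 3.37 with CNT-2, while the ligands Il1b and Il18 differed by -0.33 ± 0.16 (2 probes) and -0.82 ± 0.21 (2 probes). Il18bp, which neutralises interleukin-18, differed by 1.69, Il33 by 1.58 ± 0.16 (2 probes) and Il36b by 1.30. Of 9 inflammasome genes 0 were higher and 2 lower, the sensors Nlrp3 (-2.03) and Nlrc4 (-1.08), with a median of -0.77. Of 23 interleukin and gp130 ligand genes 4 were higher and 3 lower, and higher ones beside Osm were Ebi3 (2.43) and Il7 (1.89). Il15 differed by -1.41 and Il12b by -1.06, the latter from a control value of 1.10. Csf1, the macrophage growth factor, differed by 2.01 ± 0.38 (2 probes), and its receptor Csf1r differed by -1.25 ± 0.60 (2 probes). The receptor subunits Il6r (-1.51) and Csf2rb (-1.51) were lower too. Cish, a feedback inhibitor of cytokine receptors, differed by -2.46 and Stat5b, a transcription factor downstream of them, by 1.84. Among 14 ligands of the TNF superfamily 6 were higher and 1 lower, with a median of 0.27, and it was -0.17 with 75th percentile centring. Tnf differed by 2.24, Tnfsf15 by 2.09, Tnfsf12 by 1.83, Tnfsf9 by 1.6 and the background-like Cd70 and Tnfsf18 by 2.82 and 1.61, whereas Tnfsf10, the death ligand TRAIL, differed by -1.45. Of 20 receptors 4 were higher and 1 lower, among them Tnfrsf1b (2.61) and Tnfrsf18 (-1.61) on opposite sides.

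Inhibitors of NF-kappaB, which its activation induces, were higher in part. Of 13 inhibitor and feedback genes 6 were higher and 0 lower, with a median of 0.77, and of 17 kinases and adaptors 1 was higher. Nfkbia differed by 1.99, Nfkbib by 2.36, Nfkbie by 1.29, Bcl3 by 1.01 and the ubiquitin ligases Birc2 and Birc3 by 2.33 and 3.24. The higher kinase was Irak2 (2.26), and among the subunits Rel was higher (1.72). AP-1 factors differed by member. Of 17 Fos, Jun, Atf and Maf genes 7 were higher and 1 lower, with a median of 0.69. Fosl1 was at 0.04 in the control, 0.61 with CNT-1 and 4.94 with CNT-2, and Maff, a small Maf protein, was at -0.05 in the control, 1.32 with CNT-1 and 5.34 with CNT-2. Jund differed by 3.22 ± 0.12 (2 probes), Atf3 by 3.78 and Mafk by 2.37, while Fos and Jun differed by 0.12 and 0.09. Batf3, a factor of dendritic cells and macrophages, differed by -2.60. Among immediate early genes Arc, known from neurons, differed by 4.8 and Myc, which drives growth and division, differed by -1.46. The phosphatase Dusp6, which inactivates ERK, differed by -2.16, and Dusp1, which was background-like in the control, by 3.32.

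Secreted proteases and their inhibitors held some of the largest differences. Of 24 metalloproteinase and inhibitor genes 6 were higher and 4 lower, and of 25 plasminogen system and serpin genes 7 were higher and 1 lower. Mmp12, the macrophage elastase, was at -0.03 in the control, 0.55 with CNT-1 and 3.83 with CNT-2, Mmp3, or stromelysin, at 0.22 in the control, 0.52 with CNT-1 and 3.63 with CNT-2, and the membrane-bound Mmp14 at 0.02 in the control, 1.36 with CNT-1 and 2.83 with CNT-2. Lower were Mmp28 (-3.21), Mmp1 (-2.21), Mmp7 (-1.97) and Mmp27 (-1.41). Mmp1 was at 0.60 in the control, -1.61 with CNT-1 and -1.61 with CNT-2, and Mmp27 at 1.13 in the control, -0.46 with CNT-1 and -0.28 with CNT-2, so these 2 were high in the control and low in both nanotube columns. Procr, the protein C receptor, differed by 2.87 ± 0.16 (2 probes), Plaur, the receptor of urokinase, by 1.29 ± 0.70 (2 probes) and the coagulation factor F10 by -1.38. The medians of the metalloproteinase and serpin groups, 0.20 and 0.29, turned negative with 75th percentile centring, the first also with spike-in centring.

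The AP-1 pattern TGANTCA is bound by Fos and Jun dimers, and it was searched on both strands in RefSeq promoter windows of assembly GRCr8. A window ran from 250 bases before to 50 bases after the gene start, and 13146 of the 15925 genes had one. The pattern was found in 6.12% of all windows. It was found in 9.62% of genes higher by 1, in 13.5% of those higher by 3 and in 4.67% of those lower by 1. It was also in 3 of the 25 windows of genes lower by 3, or 12%. In the 39 protease and serpin windows it was found in 33.3%. The AP-1 match TGACTCA followed by the bases G and C also satisfies the antioxidant pattern given below. The following stretches end at or before the gene start, with the match nearest to it in capitals. They show that genes with large differences in either direction hold the pattern. Serpinb2 (difference 7.70) is at chr13:24055792-24055878, plus strand, Mmp10 (7.11) at chr8:12974606-12974692, plus strand, Mmp3 (3.41) at chr8:12925170-12925256, plus strand and Mmp1 (-2.21) at chr8:12943329-12943415, plus strand.
Serpinb2: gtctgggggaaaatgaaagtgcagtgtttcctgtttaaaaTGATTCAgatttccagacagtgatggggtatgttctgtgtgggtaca
Mmp10: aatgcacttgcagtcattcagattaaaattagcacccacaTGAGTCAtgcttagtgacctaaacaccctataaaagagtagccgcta
Mmp3: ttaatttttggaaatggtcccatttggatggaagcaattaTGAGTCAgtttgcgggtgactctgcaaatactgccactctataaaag
Mmp1: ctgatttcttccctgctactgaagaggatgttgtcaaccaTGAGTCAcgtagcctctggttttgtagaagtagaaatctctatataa
Counted from the gene start, the first base of the match was at -61 in Mmp10, -71 in Mmp3, -84 in Mmp1 and -189 in Serpinb2. The letters were TGAGTCA in the 3 metalloproteinase genes and TGATTCA in Serpinb2, and the window of Mmp1 held 2 matches. A match of letters is a description and does not show that a factor was bound.

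Secreted factors with large differences included Inhba, given above, and Spp1, osteopontin (4.22). Ereg, a ligand of the EGF receptor, was at 0.49 in the control, 0.58 with CNT-1 and 4.41 with CNT-2, and Hbegf, another, at 0.13 in the control, -0.74 with CNT-1 and 2.33 with CNT-2, while Tgfa differed by -1.27, which turned positive with quantile normalization. Met, the receptor of hepatocyte growth factor, differed by 3.1 and the fibroblast growth factor Fgf7 by 2.90. Of 33 TGF-beta, activin and BMP genes 6 were higher and 1 lower, the inhibitor Smad6 (-1.06).

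Receptors that recognise microbes and debris lay on both sides of the control, and the share of lower genes was largest among C-type lectins and Fc receptors. Of 16 C-type lectin and Fc receptor genes 6 were lower (37.5%, against 6.56% of all genes) and 2 higher (12.5%, against 10.1%). Clec4e, a receptor for glycolipids, was at 0.40 in the control, 1.34 with CNT-1 and 4.88 with CNT-2, and its neighbour in function Clec4d at 0.06 in the control, 0.66 with CNT-1 and 2.41 with CNT-2. The lower members were Clec10a (-3.38), the high-affinity Fc receptor Fcgr1a (-2.56 ± 0.61, 2 probes), the mannose receptor Mrc1 (-2.24 ± 0.13, 2 probes), Clec4a3 (-1.50), Clec4a1 (-1.04) and Cd209a (-1.26). Cd209a had a control value of 1.20. Among 21 Toll-like receptor genes 2 were higher and 2 lower (9.52% each), close to the shares over all genes. Tlr2, for lipoproteins, differed by 1.41 and Cd14, the endotoxin co-receptor, by 3.37 ± 0.16 (2 probes), while Tlr4, for endotoxin, was at -0.02 in the control, -0.71 with CNT-1 and -2.39 with CNT-2. Of 22 scavenger and phagocytic receptor genes 1 was higher (4.55%) and 2 lower (9.09%). Gas6, the bridging ligand for apoptotic cells, was higher (4.29 ± 0.25, 2 probes), and its receptor Axl (-1.45 ± 0.03, 2 probes) and Mfge8, another bridging protein (-1.43), were lower. Trem1, an amplifier of inflammation, differed by -1.45.

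Complement components were not higher in any of 19 genes, and 4 were lower: Cfp, the protease Cfb (-2.13), C1r (-1.75) and C1qa (-1.02 ± 0.05, 2 probes). Of the receptors and regulators, Itgam, a subunit of complement receptor 3, was at -0.02 in the control, 1.0 with CNT-1 and 3.44 with CNT-2. Among MHC class II genes Cd74, the invariant chain (-1.29), and RT1-DMa, which loads peptides (-1.01), were lower, while RT1-DOa and RT1-DOb, which were background-like in the control, differed by 2.61 and 2.12. The co-stimulator Cd80 differed by -1.62 and its relative Cd86 by 0.37. Of 37 interferon-stimulated genes 7 were lower and 3 higher, and their median was -0.39. The GTPases Ifi47 (-2.71), Gbp5 (-1.46), Mx2 (-1.38) and Gbp4 (-1.24) were lower, and so was the background-like Oas1b (-1.21). Usp18 (2.33 ± 0.28, 2 probes), Rsad2 (2.03 ± 0.30, 2 probes) and Oasl (1.39) were higher, and no probe of these 3 lay within 0.1 of 0 in the control.

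Transcription factors of the macrophage lineage were not displaced together. Of 27 genes 4 were higher and 5 lower. Id3 was at -0.01 in the control, -0.83 with CNT-1 and -3.16 with CNT-2. Runx1 differed by -1.75, Gata2 by -1.07 and Cebpd by -1.07, while Bhlhe41, a factor of alveolar macrophages, differed by 2.31, the haem-regulated repressor Bach1 by 1.51 ± 0.10 (2 probes) and Ets2 by 1.33 ± 0.42 (2 probes). Among 13 alveolar macrophage markers 2 were higher, Fabp4, a fatty acid carrier (3.96), and Cd14, and 2 lower, Mrc1 and Csf1r. Cd68 differed by 0.63, Siglec1 by 0.49 and Pparg, which directs alveolar macrophage development, by -0.74. Markers of neutrophils, lymphocytes, epithelium, endothelium and fibroblasts had a median of 0.00, with 2 of 27 higher, the proteoglycan Dcn (2.56) and the keratin Krt18 (1.34 ± 0.52, 2 probes), and 3 lower, Vwf (-1.72 ± 1.66, 2 probes), Nkg7 (-1.67) and Cd79a (-1.37). Their summed levels could not be given because the values are centred.

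Genes of the integrated stress response, which slows translation and raises amino acid supply, were higher in part in each of 3 groups. Of 20 sensors and factors 10 were higher and 0 lower, with a median of 0.97. Nupr1, a stress-induced chromatin protein, was at 0.00 in the control, 0.25 with CNT-1 and 4.32 with CNT-2, Trib3, a pseudokinase, at -0.02 in the control, 0.30 with CNT-1 and 3.92 with CNT-2 and Chac1, which degrades glutathione, at 0.03 in the control, 0.64 with CNT-1 and 4.54 with CNT-2. Ddit3, the transcription factor CHOP, differed by 2.73 and Ppp1r15a, which restores translation, by 3.08. Of 15 serine, glycine and one-carbon enzymes 5 were higher, including Cth, which makes cysteine (2.39), and the mitochondrial Mthfd2 (2.10 ± 0.06, 3 probes). Among 21 amino acid transporters 7 were higher and 3 lower. Slc38a4 was at 0.00 in the control, -0.19 with CNT-1 and 5.39 with CNT-2, and the glycine transporter Slc6a9 at -0.11 in the control, -0.39 with CNT-1 and 3.55 with CNT-2. Slc1a4 was also higher (2.99), whereas Slc1a3, Slc3a1 (-1.28) and Slc43a2 (-1.23 ± 0.56, 3 probes) were lower.

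Aminoacyl-tRNA synthetases, which charge tRNAs with amino acids, divided by compartment. Of 18 cytosolic enzymes 17 lay above 0 and 4 were higher by at least 1, Aars1 (1.68), Cars1 (1.56), Wars1 (1.39 ± 0.09, 2 probes) and Sars1 (1.25), with a median of 0.54. Of 14 mitochondrial enzymes 1 lay above 0 and 1 was lower by at least 1, Cars2 (-1.68), with a median of -0.50. The cytosolic and mitochondrial enzymes for cysteine, Cars1 and Cars2, were thus on opposite sides. Lars2 differed by -0.88, Vars2 by -0.88 and Pars2 by -0.82 ± 0.06 (2 probes). Both medians kept their sign under each centring that was run, while with the 75th percentile that of the cytosolic group was 0.10.

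The amino acid response pattern TGATGNAA, bound by ATF4 with C/EBP partners, occurred in 2.88% of all promoter windows and in 3.18% of genes higher by 1, 4.96% of those higher by 3 and 2.80% of those lower by 1. It was in 0 of the 25 windows of genes lower by 3. In the integrated stress response list 8 of 49 windows held it (16.3%), and among the synthetases 7 of 31 (22.6%). Chac1 and Trib3 hold it, and their stretches are shown because these genes are standard targets of ATF4. The capitals mark the pattern on the opposite strand. Chac1 is at chr3:126795924-126796011, plus strand, and Trib3 at chr3:161275534-161275594, minus strand.
Chac1: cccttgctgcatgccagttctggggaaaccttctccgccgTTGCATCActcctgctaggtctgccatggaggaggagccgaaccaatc
Trib3: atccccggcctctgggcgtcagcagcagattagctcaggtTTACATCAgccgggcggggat
The first base of the match was at -167 in Chac1 and -21 in Trib3. Nupr1, Slc1a4, Aars1 and Cars1 also held a match in their windows.

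Protein folding genes of the endoplasmic reticulum were moderately higher, with 6 of 28 higher and 0 lower. Dnajb9, a co-chaperone, differed by 1.82 ± 0.12 (2 probes), Herpud1 by 1.39 ± 0.17 (2 probes), the oxidase Ero1a by 1.36 ± 0.26 (2 probes), P4hb by 1.22, Derl1 by 1.11 and Sec61a1 by 1.02. The 34 cytosolic and other heat shock genes had a median of 0.03, negative with each centring tried, with 7 higher and 1 lower. The small heat shock gene Hspb1 was at -0.03 in the control, 0.14 with CNT-1 and 4.42 with CNT-2. Its relative Cryab differed by -1.43. Among 16 targets of the oxidative stress factor NRF2, 5 were higher and 0 lower, including Srxn1 (1.82) and the haem oxygenase Hmox1 (1.63). Glutathione transferases were mixed, with Gsta2 higher (1.91 ± 0.12, 2 probes) and Gsta4 lower (-1.53). Of the oxidase genes Hvcn1, the proton channel, differed by 2.56 ± 0.21 (2 probes), Nox1 by 1.32 and the background-like Duox2 by 3.62. Superoxide dismutase 2, Sod2, differed by 1.72. Metallothioneins, which bind zinc and copper, went opposite ways, with Mt3 at -0.02 in the control, 0.72 with CNT-1 and 2.46 with CNT-2, Mt1 at 0.02 in the control, 0.00 with CNT-1 and -1.13 with CNT-2 and Mt2A at 0.01 in the control, -0.02 with CNT-1 and -1.48 with CNT-2. Among iron genes Lcn2, which traps siderophores, differed by 3.68, the transporters Slc11a1 and Slc11a2 by 2.46 and 1.16 ± 0.17 (2 probes) and the ferroxidase Cp by -1.45 ± 0.56 (4 probes).

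Subunits of the lysosomal proton pump were higher as a group, with 18 of 19 above 0, 10 higher (52.6%), 0 lower and a median of 1.09. Atp6v0d2 was at -0.01 in the control, 1.05 with CNT-1 and 2.24 with CNT-2, and Atp6v0b differed by 2.01. Of 16 lysosomal membrane and TFE genes 6 were higher and 0 lower, among them Ctns, the cystine exporter (1.90). Hydrolases were mixed, with 8 of 31 higher and 4 lower. Gla, a galactosidase (2.39), Lgmn (2.17), Ctsk (2.10) and Ctsl (1.95 ± 0.00, 2 probes) were higher, and Ctse (-1.76), Ctsc (-1.44), Ctsh (-1.18) and Ppt1 (-1.10) lower. Of 29 autophagy genes 5 were higher, including the cargo receptors Sqstm1 (1.84 ± 1.20, 5 probes), Tax1bp1 (1.30) and Optn (1.11 ± 0.54, 2 probes). The probes of Sqstm1 were at -0.305, 2.29, 2.37, 2.38 and 2.45, so its mean describes none of them. Proteasome genes lay close to the control, with 33 of 38 above 0, none past the threshold and a range from -0.12 to 0.71. Their median of 0.26 was -0.18 with 75th percentile centring.

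Genes for dividing cells were below 0 in 91 of 104 members, and 55 were lower by at least 1. Of 20 mitotic kinesin and spindle genes 18 were lower, against 6.56% of all genes, and all 20 were below 0, with a median of -1.30. Of 20 kinetochore and condensin genes 13 were lower, and of 28 cyclins and kinases 12. Aspm, a spindle pole protein, was at 0.00 in the control, -0.19 with CNT-1 and -2.04 with CNT-2, Kif15, a spindle motor, at -0.01 in the control, 0.00 with CNT-1 and -1.84 with CNT-2, and Fbxo5, an inhibitor of the anaphase-promoting complex, at -0.01 in the control, -0.09 with CNT-1 and -2.29 with CNT-2. The CNT-1 values of these 3 genes were within 0.2 of the control. Plk4, which duplicates centrioles, differed by -1.84, the cyclin Ccne2 by -1.66 ± 0.10 (2 probes) and the repressor E2f7 by -1.69. Higher members were Plk3, a stress-responsive kinase (1.57 ± 0.14, 2 probes), and the kinase inhibitors Cdkn2b (1.23) and Cdkn2d (1.04).

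Replication and repair genes followed. Of 22 licensing and helicase genes 14 were lower and 0 higher, and of 28 polymerase, clamp and nucleotide genes 16 and 0. Mcm7, a helicase subunit, was at 0.00 in the control, -0.15 with CNT-1 and -1.94 with CNT-2. Mcm10 differed by -2.33 ± 0.37 (2 probes) and Pole2 by -2.09. Of 18 genes of homologous recombination and the Fanconi pathway 11 were lower (61.1%) and all 18 were below 0, with a median of -1.31. Bard1, the partner of BRCA1, differed by -1.80, Fancd2 by -1.61 and Exo1 by -1.69. Of 26 checkpoint, excision and end-joining genes 7 were lower, among them Clspn (-2.08 ± 0.07, 2 probes) and Timeless (-1.95). Chek1, a checkpoint kinase, was at 0.04 in the control, -0.07 with CNT-1 and -1.72 with CNT-2. Ddb2, a p53 target that recognises ultraviolet damage, was the 1 higher gene, at 0.00 in the control, 1.0 with CNT-1 and 2.38 with CNT-2. Of 34 histone and chromatin genes 10 were lower and 1 higher. The methyltransferases Dnmt3b (-2.13) and Ezh2 (-1.55), the remodeller Hells (-1.81 ± 0.12, 2 probes) and Hmgb2 (-2.03) were lower. Lmnb1, a lamin of dividing cells, differed by -1.67 and Lmna by 1.08. Stmn1, which destabilises microtubules, differed by -1.75 ± 0.00 (2 probes).

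The shares of 2 promoter patterns known from cell cycle genes were larger in the lower genes than over all windows. The E2F pattern TTTCCCGC occurred in 1.64% of all windows, in 4.56% of genes lower by 1 and in 0.53% of those higher by 1. It was in 0 of the 25 windows of genes lower by 3. Among the lists it was in 2 of 85 cell division windows (2.35%), 8 of 42 replication windows (19.0%) and 7 of 39 repair windows (17.9%). The cell cycle homology region TTTGAA, bound by repressor complexes outside mitosis, occurred in 14.8% of all windows, 22.1% of the lower and 13.1% of the higher genes, and in 49.4% of the 85 cell division genes with a window. Both strands were searched. In genes with every probe near 0 the shares were 2.07% for the E2F pattern over all 9048 windows and 4.86% over the 659 lower genes. Stretches that end at or before the gene start are shown for the replication gene Mcm7 and the checkpoint gene Chek1 with the E2F pattern on the opposite strand, and for 2 spindle genes with the homology region, which is on the opposite strand in Kif15. Mcm7 is at chr12:22163364-22163428, minus strand, Chek1 at chr8:44629844-44629911, minus strand, Kif15 at chr8:131479318-131479403, plus strand and Aspm at chr13:53625528-53625583, plus strand.
Mcm7: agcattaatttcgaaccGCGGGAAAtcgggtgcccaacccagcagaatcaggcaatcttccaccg
Chek1: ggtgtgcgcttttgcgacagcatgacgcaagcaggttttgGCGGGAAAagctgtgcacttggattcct
Kif15: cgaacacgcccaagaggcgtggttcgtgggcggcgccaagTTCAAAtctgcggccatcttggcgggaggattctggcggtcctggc
Aspm: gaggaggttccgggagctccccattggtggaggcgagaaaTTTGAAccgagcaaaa
The first base of the match was at -233 in Mcm7, -28 in Chek1, -46 in Kif15 and -16 in Aspm.

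Shares of the other patterns were as follows. The hypoxia pattern TACGTG occurred in 3.54% of all windows, 3.48% of the higher and 3.15% of the lower genes. It was in 8 of 21 windows of hypoxia targets (38.1%) and in 8 of 32 of the glycolysis list (25%). The antioxidant pattern TGACNNNGC occurred in 13.6% of all windows, 15.3% of the higher and 12.6% of the lower genes. In the list of NRF2 targets, peroxide enzymes, glutathione transferases and oxidase genes 13 of 49 windows held it (26.5%). The sterol pattern TCACNCCAC occurred in 1.03%, 0.83% and 1.52%. None of the 21 windows of the sterol pathway list held it. The heat shock element, NF-kappaB site and interferon response element, searched in the same way, were found in 0.56%, 1.32% and 3.31% of all windows. Their shares were 0.53%, 1.44% and 2.35% in the higher and 0.93%, 1.75% and 3.97% in the lower genes. The sterol, heat shock, NF-kappaB and interferon shares were larger in the lower than in the higher genes, but they rest on few windows. In that order, 11, 7, 19 and 31 of 1320 windows of higher genes held the pattern. Of 856 windows of lower genes, 13, 8, 15 and 34 did. No direction is read from these counts. In the heat shock, NF-kappaB and interferon lists, 6 of 27 windows (22.2%), 5 of 28 (17.9%) and 18 of 29 (62.1%) held the respective pattern.

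Splicing genes lay slightly below the control without passing the threshold, and most ribosomal protein genes lay close to the control. Of 34 spliceosome and hnRNP genes 3 lay above 0, the median was -0.41 and the lowest was Snrpe (-0.95). The 44 large-subunit and 27 small-subunit genes of the cytosolic ribosome stayed within 1, except Rps26, at -0.01 in the control, 0.05 with CNT-1 and -2.47 with CNT-2, a difference found in the CNT-2 column alone. The 39 ribosome biogenesis genes had a median of -0.23 with none past the threshold. Of 17 RNA decay genes 2 were lower, the exonuclease Xrn1 (-2.05) and Zfp36, which directs decay of cytokine mRNAs (-0.09 in the control, -0.05 with CNT-1 and -2.13 with CNT-2). In the circadian clock group 3 of 13 genes were lower, Nr1d1 (-2.24), Dbp (-1.70) and Rora (-1.22), and 2 higher, Cry1 (1.07) and Nfil3 (1.04). Nr1d1 was at 0.65 in the control, -0.39 with CNT-1 and -1.59 with CNT-2.

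Regulators of actin were higher in part. Of 40 actin regulators 10 were higher and 0 lower, with a median of 0.42 that was -0.02 with 75th percentile centring. Tubulin genes were mixed, with Tubb3 (1.78) and Tube1 (-1.12 ± 0.26, 3 probes) among 4 higher and 2 lower of 12. Of 24 integrin genes 5 were higher and 1 lower, with Itgb7 (2.59) and Itgae (-1.23) on either side. Icam1 (2.09), Icam4 (1.55), Cd44 (1.59 ± 0.45, 2 probes), Cd9 (1.53) and the background-like Vcam1 (2.48) were higher, and Icam2 was lower (-2.12).

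Regulators of cell death lay on both sides. Of 16 BCL2 family genes 5 were higher and 1 lower. The higher genes with the largest differences were the survival genes Bcl2a1 (1.77) and Bcl2 (1.51 ± 0.32, 2 probes), and the lower gene was Bmf, a killer protein (-2.44). Cflar, which blocks caspase-8, differed by 2.61, and the caspase gene Casp2 by -1.72. The growth arrest genes Gadd45a, Gadd45b and Gadd45g differed by 2.68, 1.63 and 1.88. Purine receptors also split, with Adora2a (4.83 ± 1.51, 2 probes), P2ry2 (2.46) and P2rx4 (1.29) higher and P2ry10 (-2.78), P2ry12 (-2.0) and Adora2b (-1.83) lower. The 2 adenosine receptors Adora2a and Adora2b, which both raise cyclic AMP, lay on opposite sides of the control.

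Across gene families named by the start of their symbols, 59 of 328 solute carriers were higher (18.0%) and 21 lower (6.4%), while of 204 zinc finger genes 7 were higher (3.43%) and 11 lower (5.39%). Of 38 kinesins 11 were lower and 4 higher. Aryl hydrocarbon receptor genes were higher in 2 of 9 members, Tiparp (1.67) and Nqo1 (1.10), and S100, annexin and galectin genes in 6 of 29, with 0 lower in both. The largest of the latter were Lgals4 (1.95) and Anxa3 (1.76 ± 0.14, 4 probes). Of 34 translation factor genes 1 was higher, Eif1a (1.47), and of 13 commonly used reference genes 2, Pgk1 (1.10) and Tfrc (1.03 ± 0.15, 3 probes). With CNT-1, 184 genes were at least 1 higher than the control (1.16%) and 342 at least 1 lower (2.15%). Both comparisons share the control column, so their counts are given side by side and no overlap is counted. The shared control also enters every statement above that both nanotube columns lay on the same side of it.

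The control probes of the array differed by small amounts, with an SD that is spread between probes and not between cultures. Such probes do not give the scatter of gene probes. For comparison, the differences of the 3036 background-like gene probes had an SD of 0.66. The negative control differed by -0.10, 12 probes of the RC type by -0.11 ± 0.02 (SD) and 10 spike-in probes by 0.23 ± 0.10 (SD). Array control probes named DCP differed by 0.22 ± 0.08 for numbers up to 5 (SD, 11 probes) and by -0.18 ± 0.26 for higher numbers (SD, 7 probes). Their targets are not named in the sources used here, and their part in the differences above was not tested.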

How the data were processed

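RNA from control, CNT-1 and CNT-2 cultures was measured on 1-colour Agilent arrays. The submitters' processing notes name Agilent Feature Extraction 10.7.3.1 as the software. The deposited table holds 3 columns of presumed log2 values, made by the authors relative to a baseline of each probe, and the sources used here do not give their normalization. A natural log is possible too. Columns were matched to groups by sample, and no unmatched column was left.

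Probes were named from the platform annotation, 17424 by accession, 3104 by symbol, 396 by an older symbol updated through RefSeq, and 8 as written. Control values were subtracted per probe and averaged per gene in Python 3.11.15 with pandas 2.3.3 and numpy 2.4.6. The arithmetic of the code was checked on simulated columns with known changes, which says nothing about the noise of these data. No p-values were calculated, because each group had 1 column, and the precision between cultures is therefore unknown. Alternatives covered scaling, probe filters, probe summary, gene names, threshold and log base. Genes named were the 15 highest and lowest near 0, the 10 highest and lowest away from 0, the 10 furthest on each side with every one of 3 or more probes past 1, genes with probes on both sides, up to 8 per list with members on the opposite side, and up to 3 per direction in each family. Others (Cth, Ddit3, Fos, Il18, Il1b, Jun, Mthfd2, Plaur, Slc1a4, Tlr2) were named after their values were seen. Not every list is reported here. Members and lists were chosen with earlier results of these data known. Promoter windows came from RefSeq tables of assembly GRCr8.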

Additional observations from a re-analysis of the deposited data

Results flagged for a closer look

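The probes without a gene symbol stayed outside the gene comparison and held a signal of their own. Of 20080 such probes, not counting 91 control probes of the array, 1266 were at least 1 higher with CNT-2 than in the control (6.30%) and 1868 at least 1 lower (9.30%), with a median of -0.06. Lower probes thus outnumbered higher ones here, whereas among the named probes 10.4% were higher and 6.82% lower. Of the 12647 near 0 in the control, 6.75% were higher and 10.5% lower, and of the other 7433, 5.54% and 7.22%. The lowest of them differed by -5.71. What these probes detect was not analysed here.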

How the results depend on the processing

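No paired analysis was possible because each group had 1 column, so that leaving out a replicate was not possible either. The counts of 1616 higher and 1045 lower genes depended on the scaling: 838 and 2295 with 75th percentile centring, 863 and 544 with quantile normalization, and 1618 lower genes with spike-in centring. They were 461 and 264 with only probes more than 0.1 from 0 in the control, 342 and 207 with only genes of 2 or more probes, which tests fewer genes, 431 and 168 at a threshold of 2, and 2660 and 1813 if the values are natural logs. The median over all genes, 0.04, was -0.40 after 75th percentile centring and -0.20 after spike-in centring. The share of near-0 probes past the threshold, 18.2%, was 16.6% with a border of 0.2 and 21.5% with 75th percentile centring. For the other probes it was 14.6%. This became 16.1% with a border of 0.05, 27.4% with 0.2, 13.6% with unnamed probes added, 16.3% with 75th percentile centring and 23.2% without background-like probes, an alternative chosen after seeing the data. Of the 349 named genes past the threshold 312 remained past it with the 75th percentile. Quantile normalization left 221 past it and turned Prkcq to 1.65, Ndst1 to 0.98 and Tgfa to 0.65. Il12b was 0.047 without subtraction of its control value. Of the 94 list groups the median changed sign in 36 with the 75th percentile, 18 with spike-in centring and 10 with quantile normalization, in 17 of 48 with only probes away from 0, and in 12 of 73 with genes of 2 or more probes. The cause of these changes was not tested.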
